A study of Mus musculus with 8 samples.

Results

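The most accessible promoters of control muscle were the 1000 regions with the highest mean signal over the 4 vehicle libraries, among 54582 regions that the deposited table places at the transcription start site (TSS) of a protein-coding gene on chromosomes 1 to 19. They were therefore chosen by their vehicle values, and those values are given as a description. The whole table held 489637 regions, of which 70864 carried the TSS annotation of any gene. The 1000 members belonged to 983 genes, of 13396 genes with such a region. In 15 genes more than 1 region was a member, so those members share a promoter or gene. The assay was ATAC-seq, a measure of open chromatin by the insertions of a transposase, in nuclei of the gastrocnemius, a calf muscle. The 8 libraries came from mice of 6 months, 4 given vehicle and 4 given tamoxifen and labelled iMSBmal1KO. All mice, the vehicle group included, were Cre-positive with floxed Bmal1 alleles (Cre+:iMSBmal1 fl/fl), and iMSBmal1KO names an inducible skeletal muscle knockout of Bmal1. The knockout and the tamoxifen cannot be told apart, and the labels give neither the promoter that drives Cre nor the time of day. The labels do not say that each library is a separate animal, so p-values measure the spread between these libraries.

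A promoter is the stretch of DNA around a start site where transcription factors and RNA polymerase assemble, and in mammals most promoters of broadly used genes lie in CpG islands, which are rich in G and C and kept free of nucleosomes. Promoters of tissue genes more often carry a TATA box or E-boxes, short sites for factors of the helix-loop-helix family. BMAL1, the product of the floxed gene, pairs with CLOCK and binds E-boxes of the form CACGTG, at genes that include the Per, Cry, Rev-erb and PAR bZIP families. Myogenic factors such as MYOD1 bind E-boxes of the form CAGCTG.

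The promoters of the leading genes illustrate these types. The sequences below are the 250 bases before the RefSeq start of each gene (GRCm38.p6), 5′ to 3′ on the strand of the gene. Capitals mark GGGCGG on either strand in Nr1d2 and Hdgfl2, CACGTG in Dnpep and Tef, and CAGCTG in Ckm. Nr1d2, Dnpep and Hdgfl2 are shown because they had the highest signal outside a group of numbered gene models described below, Tef because both of its promoters were members, and Ckm as a muscle gene.
Nr1d2, chr14:18239107-18239356, minus strand: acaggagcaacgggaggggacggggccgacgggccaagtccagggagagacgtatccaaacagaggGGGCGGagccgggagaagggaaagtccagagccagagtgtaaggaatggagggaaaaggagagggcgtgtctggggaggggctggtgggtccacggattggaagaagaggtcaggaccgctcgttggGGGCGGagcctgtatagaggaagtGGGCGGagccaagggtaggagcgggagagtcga
Hdgfl2, chr17:56079381-56079630, plus strand: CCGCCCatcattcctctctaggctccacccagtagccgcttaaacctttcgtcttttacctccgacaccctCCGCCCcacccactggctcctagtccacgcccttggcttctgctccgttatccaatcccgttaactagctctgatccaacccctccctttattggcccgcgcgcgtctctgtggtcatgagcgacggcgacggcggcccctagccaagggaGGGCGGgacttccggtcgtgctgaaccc
Dnpep, chr1:75317638-75317887, minus strand: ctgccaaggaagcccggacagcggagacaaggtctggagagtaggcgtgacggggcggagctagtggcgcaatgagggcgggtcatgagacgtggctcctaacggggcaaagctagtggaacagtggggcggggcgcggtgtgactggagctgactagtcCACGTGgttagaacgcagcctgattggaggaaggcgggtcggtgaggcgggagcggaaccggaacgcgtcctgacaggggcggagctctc
Tef, stronger region, chr15:81811164-81811413, plus strand: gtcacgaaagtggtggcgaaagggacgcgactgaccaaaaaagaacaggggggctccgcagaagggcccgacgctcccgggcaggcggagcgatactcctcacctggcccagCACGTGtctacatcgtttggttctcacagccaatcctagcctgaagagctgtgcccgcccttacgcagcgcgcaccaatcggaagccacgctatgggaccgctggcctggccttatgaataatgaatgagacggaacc
Tef, weaker region, chr15:81802423-81802672, plus strand: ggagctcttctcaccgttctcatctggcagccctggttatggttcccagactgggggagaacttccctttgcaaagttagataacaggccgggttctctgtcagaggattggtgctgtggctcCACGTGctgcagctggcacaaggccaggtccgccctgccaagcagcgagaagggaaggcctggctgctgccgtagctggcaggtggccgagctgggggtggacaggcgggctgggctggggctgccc
Ckm, chr7:19410844-19411093, plus strand: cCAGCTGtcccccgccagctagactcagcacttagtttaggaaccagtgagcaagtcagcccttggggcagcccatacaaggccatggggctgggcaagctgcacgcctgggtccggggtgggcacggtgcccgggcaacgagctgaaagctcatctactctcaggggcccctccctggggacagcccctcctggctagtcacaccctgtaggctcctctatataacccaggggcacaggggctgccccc
In Nr1d2 the 3 GGGCGG sites began 184, 57 and 33 bases before the start. The Dnpep E-box began 90 bases before the start, and those of Tef 138 bases before it in the stronger region and 127 in the weaker one. The Ckm site began 249 bases before its start. Matches of letters are descriptions and do not show that a factor is bound.

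The deposited values were nearly all whole multiples of 1 step per library (98.3% to 99.8% of non-zero values), as read counts divided by a factor would be, and are called signal here. Values of single libraries are given in the order of replicates 1 to 4. Depth, summed over the deposited regions, ran from 4.31 M to 29.5 M read equivalents (M, units of 1e+06). The median member held from 291 reads in vehicle replicate 4 to 2789 in iMSBmal1KO replicate 1. Vehicle replicate 4 was the shallowest library and had the highest mitochondrial share of these read equivalents, 16.5% against 1.11% to 5.51% in the others. Its median member signal was 910, against 1391, 1285 and 1105 in the other vehicle libraries and 1194, 1349, 1108 and 1215 with iMSBmal1KO. Muscle fibre markers bore out the label of the tissue. Of the 7 checked, Acta1, Atp2a1, Ckm and Tnnt3 had a member region, whereas none of the markers of satellite, fibro-adipogenic, endothelial, immune, smooth muscle or Schwann cells had one.

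The members were long and dense regions. Their median length was 792 bases (281 to 2174), against 105 in the other TSS regions, and their median signal per 100 bases was 151, against 8.71. Of the members 81.2% overlay the annotated start itself, against 21.02% of the other TSS regions. Length contributes to a rank by total signal, and 680 of the members were also among the 1000 highest by signal per base. The limit of the rule cut through a smooth curve, shown in the plot of signal by rank. Just inside it lay Heatr1, Jag2 and Pwwp2a at 881.5, 881.3 and 881.0, and just outside Mbd5, Neurl4 and Rpia at 880.5, 880.3 and 879.9.

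**Figure D1:**
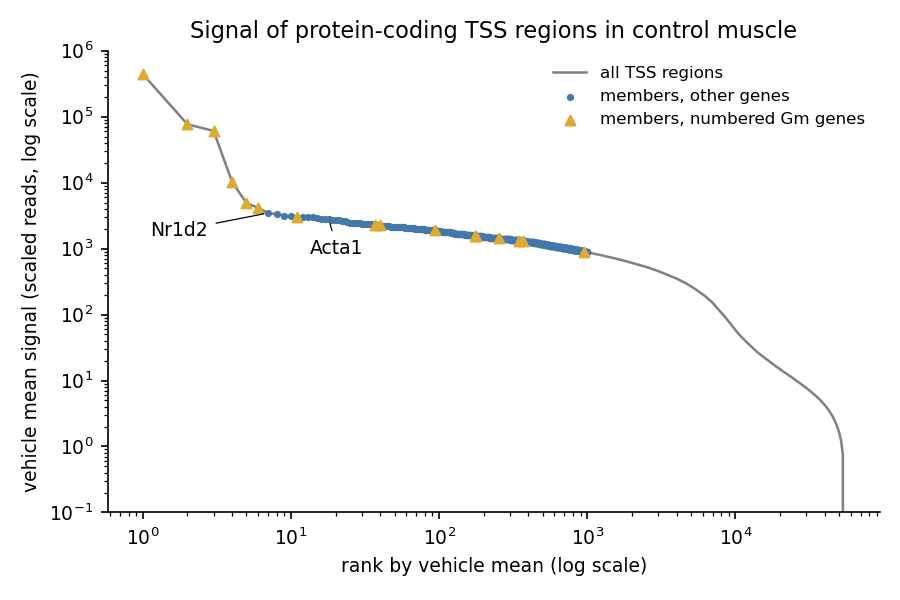
Mean signal over the 4 vehicle libraries (scaled reads, log scale) against rank (log scale) for TSS regions of protein-coding genes. Triangles mark the 16 members in numbered Gm genes, which hold ranks 1 to 6, and Nr1d2 at rank 7 heads the 984 others, which fall gradually from 3466 to 881.

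The 6 highest regions did not belong to well-described genes. They were Gm10800, Gm21738, Gm10801, Gm10722 and 2 regions of Gm10717, gene models known by number only, and 16 members in all carried such names (this group was formed after the values were seen). Of the 16, 11 lay within chromosome 9, 3000010 to 3035298, 2 on chromosome 2 between 98662307 and 98667365 and 1 on chromosome 14, 19416889 to 19419063 (Gm21738). Reads of repeated sequence can pile up on such gene models, and whether these counts reflect accessibility of these places was not tested. Of the nuclear reads in the deposited regions, Gm10800 alone held 3.83%, 3.18%, 2.13% and 5.02% under vehicle and 2.14%, 3.78%, 9.70% and 5.74% with iMSBmal1KO. Its range within each group was wide and the groups overlapped.

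These 14 clustered members moved together between libraries, apart from the other members. iMSBmal1KO replicate 3 was the highest library in 14 of 14, and vehicle replicate 3 the lowest in 13. The ratio of iMSBmal1KO replicate 3 to replicate 1 was 3.48 to 5.52 (median 4.97), whereas over the 984 members outside numbered Gm genes its median was 0.919 and its highest value 2.06. Their log2 changes between the groups, 0.22 to 0.73, had limma adjusted p from 0.613 to 0.878 and none was called. The last 2 numbered members, Gm16253 and Gm42417, lay elsewhere, with vehicle means of 1304 ± 373 and 900 ± 114 (SD, n = 4).

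Leaving these 16 aside changed the share of reads that fell in the members. All 1000 held 14.99% ± 1.36 of the nuclear reads in the deposited regions in vehicle and 16.8% ± 3.48 in iMSBmal1KO (mean and SD of 4). Reads outside the deposited regions are not counted in these shares. The other 984 held 10.97%, 10.5%, 10.1% and 8.65% under vehicle and 10.0%, 10.2%, 8.22% and 9.49% with iMSBmal1KO. The difference between groups was thus 1.76 points with the 16 and -0.57 points without them. With the 16, leaving out 1 library gave differences from 0.26 points (without iMSBmal1KO replicate 3) to 3.00 points (without iMSBmal1KO replicate 1), beside a pooled SD of 2.64 points within groups.

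**Figure D2:**
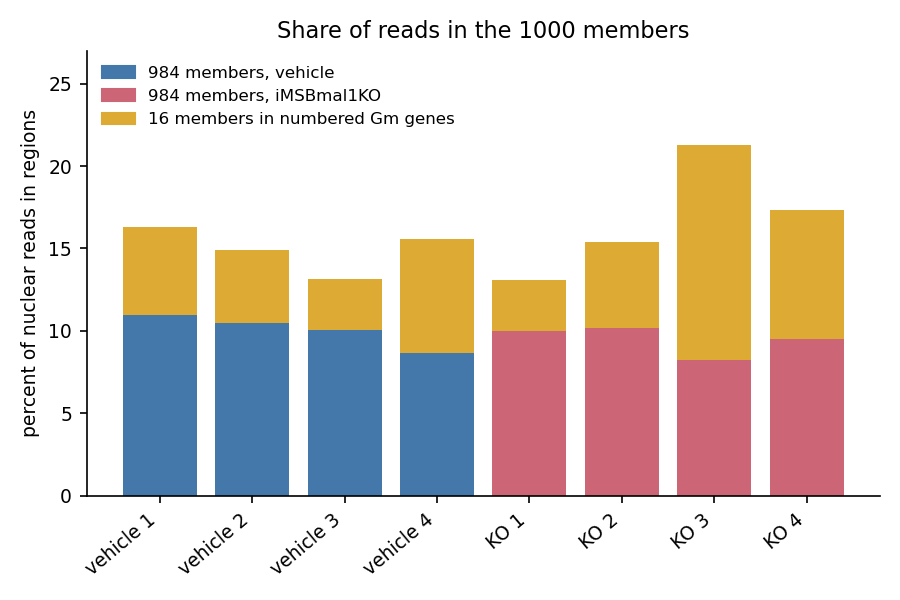
Percent of nuclear reads in regions that fell in the members, for each of the 8 libraries. The 984 members (blue, vehicle, and red, iMSBmal1KO) hold 8.22% to 10.97% in each library, while the 16 members in numbered Gm genes (yellow) range from 3.06% in iMSBmal1KO replicate 1 to 13.1% in iMSBmal1KO replicate 3.

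Below the numbered gene models, the highest promoter was that of Nr1d2, which encodes the clock repressor REV-ERB beta. Its signal was 4175, 3449, 3340 and 2898 under vehicle and 2736, 3195, 2478 and 2870 with iMSBmal1KO. The groups overlapped by 1 pair of libraries, vehicle replicate 4 and iMSBmal1KO replicate 2. Next came Dnpep, an aspartyl aminopeptidase, at 3345 ± 679 in vehicle and 3098 ± 210 in iMSBmal1KO (mean and SD of 4), and Hdgfl2, a relative of hepatoma-derived growth factor, at 3174 ± 544 and 2702 ± 220. They were followed by Tef, a PAR bZIP factor of the clock output, at 3099 ± 607 and 2730 ± 279, Ak1, the muscle adenylate kinase, at 3056 ± 658 and 2984 ± 394, and Fkbp2, a proline isomerase of the endoplasmic reticulum, at 3053 ± 649 and 2979 ± 218. Per 100 bases, the vehicle signal of these regions was 251 for Nr1d2, 324 for Dnpep, 386 for Hdgfl2, 209 for Tef, 203 for Ak1 and 268 for Fkbp2. Per length, the highest of the 6 was therefore Hdgfl2 and not Nr1d2.

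Genes of muscle contraction and energy supply were the list with the largest share of genes marked. Of 46 such genes with a TSS region, 16 had a member (34.8%), against 7.34% of all 13396 genes. Acta1, skeletal alpha-actin, stood highest, with 3700, 2762, 2589 and 2014 under vehicle and 2443, 2816, 3047 and 3460 with iMSBmal1KO. Vehicle replicate 4 was the lowest and the groups overlapped fully. Tnni2, the fast troponin inhibitor, had 2105 ± 398 in vehicle and 2216 ± 272 in iMSBmal1KO, and Atp2a1, the calcium pump of fast fibres, had 1986 ± 415 and 1962 ± 381 (SD, n = 4 each). Ckm, muscle creatine kinase, had 1743 in vehicle within a short region of 551 bases, and so a density of 316 per 100 bases. The troponin gene Tnnt3, at 1411, had 266 per 100 bases.

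Not every gene of muscle fibres had a member. The other 3 defining markers of fibres were not members. Ttn, the gene of titin, was at rank 1517 with 714, Pvalb, the calcium buffer of fast fibres, at rank 3177 with 437, and the best TSS region of Myh4, the fastest myosin heavy chain, at rank 13594 with 28.7. The best TSS region of Pax7, which marks satellite cells, had 11.6, that of the endothelial Pecam1 5.89 and that of the leukocyte gene Ptprc 1.68, the last with 0 in some libraries. Summed over its list, the signal of satellite cell markers was 538 to 786 in vehicle and 701 to 916 in iMSBmal1KO libraries, and that of endothelial markers 73.1 to 116 and 53.9 to 106. A smaller number of nuclei of a type and a less open promoter per nucleus cannot be told apart in such bulk libraries.

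The groups of regulators and the chaperones had members more often than the 7.34% over all genes. Immediate-early genes, which respond within minutes to stimuli, had a member in 7 of 27 (25.9%), led by Egr1 at 1671 ± 280, Dusp1 at 1653 ± 219 and Jund at 1389 ± 219 in vehicle (SD, n = 4). Muscle transcription factors had 5 of 28 (17.9%), with Esrra, a regulator of mitochondrial genes, at 1775, Hdac4, a repressor of MEF2, at 1583, and Mef2a at 1084. Chaperones had 14 of 63 (22.2%). Their leading members were Hspa8, the constitutive Hsp70, at 1811, and the small heat shock proteins Hspb8 at 1381 and Cryab at 1359.

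Genes of RNA processing and translation differed by group. Translation factors had a member in 11 of 44 genes (25%), with Eif1, Eif4g2 and Eif5a at 1559, 1507 and 1433. Splicing factors had 14 of 69 (20.3%), with Rbm39 at 1351, Hnrnpa1 at 1320 and Hnrnpk at 1260. Cytosolic ribosomal proteins, by contrast, had 4 of 69 (5.80%), among them Rps29 at 1472, Rps21 at 1264 and Rps19 at 1182. For the mitochondrial ribosome the count was 7 of 71 (9.86%), with Mrps18b, Mrpl17 and Mrps18a at 1652, 1130 and 1118.

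For other large complexes the shares were at or below the 7.34% over all genes. Oxidative phosphorylation, near that background, had 5 of 74 genes (6.76%), with the complex III subunit Uqcrq at 1807, the ATP synthase subunit Atp5g1 at 1305 and the complex I subunit Ndufs8 at 996. Of the proteasome subunits 1 of 29 was marked, Psmb3 at 1001, and of RNA polymerase II and Mediator 1 of 56, Polr2a at 1346. Replication-dependent histones had 1 of 50, H3c15 at 1263. Numbered zinc finger proteins had 15 of 319 (4.70%), led by Zfp78 at 1987, Zfp143 at 1853 and Zfp438 at 1494. Olfactory receptors, silent in muscle, had 0 of 50, genes of other organs 0 of 6 and the ubiquitin precursors 0 of 4.

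**Figure D3:**
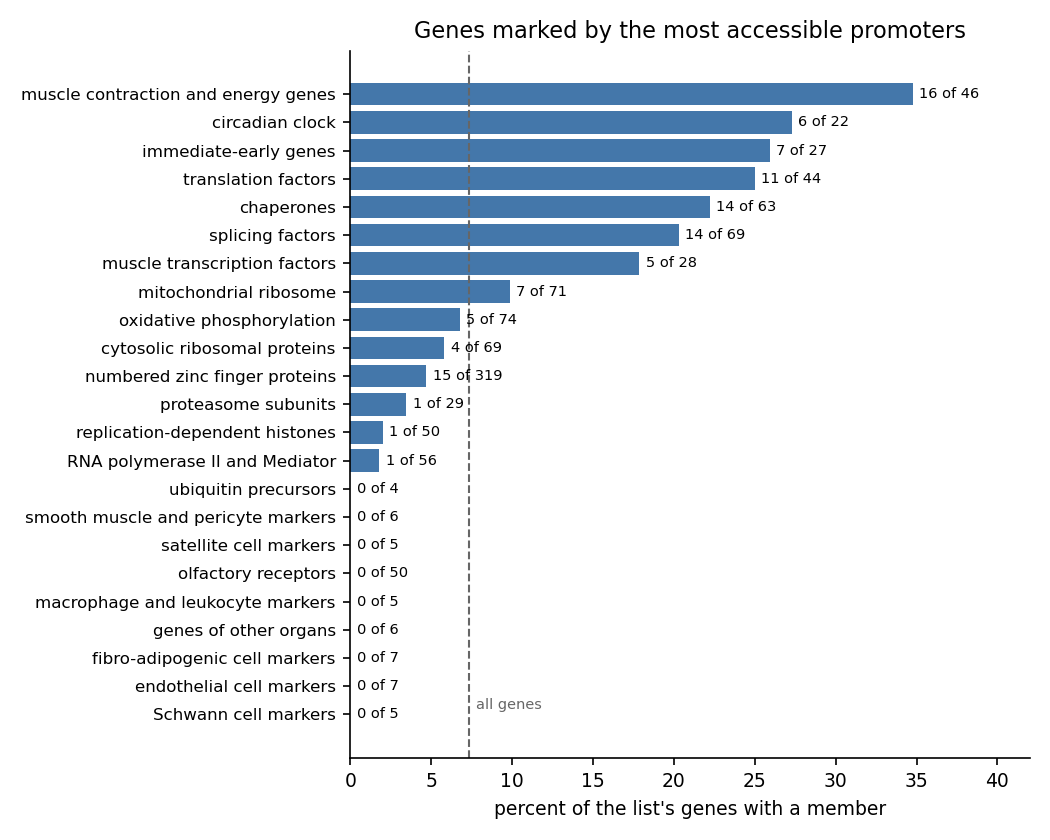
Percent of each list's genes with at least 1 member region; the numbers give genes with a member of genes with a TSS region, and the dashed line is the 7.34% over all genes. Muscle contraction and energy genes (34.8%) and clock genes (27.3%) lie highest, and no list of other cell types has a member.

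The sequence around the start was described for the 710 members whose region held a RefSeq start, in windows of 300 bases (250 before and 50 after the start). Beside them stood 7279 other TSS regions matched in the same way. The 20084 RefSeq promoters of protein-coding genes on chromosomes 1 to 19 are called all promoters here. The members were rich in CpG. Their median GC content was 64.7%, against 61.0% in the other matched regions and 57.0% over all promoters. A ratio of observed to expected CpG above 0.6 was found in 85.5% of members, 74.0% of the other regions and 48.9% of all promoters. A start on the opposite strand within 1000 bases, as at promoters that serve a pair of genes, was listed for 24.1% of members, 12.1% of the other regions and 12.6% of all.

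Each motif was searched as exact letters on both strands. GGGCGG, the core of an Sp1 site, was present in 80.1% of members, 65.9% of the other regions and 47.0% of all promoters. CCAAT, the core of an NF-Y site, was in 52.39%, 38% and 38.11%. These 2 motifs were more frequent in members than in either comparison set. TATAAA was in 4.93%, 6.84% and 12.7%, and so was less frequent in members than in all promoters.

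The E-box bound by BMAL1, CACGTG, was in 11.7% of members, 10.4% of the other regions and 7.89% of all promoters, and the myogenic form CAGCTG in 13.1%, 15.7% and 15.6%. CCGGAA, the core of ETS sites, was in 26.1%, 29.4% and 19.1%, and AAGATGGCG, the core of YY1 sites, in 4.23%, 3.05% and 1.83%. The shares of TGACGTCA, a cyclic AMP response element, were 2.68%, 3.599% and 2.30%. GCGCATGCG, an NRF1 site, was in 2.82%, 4.19% and 2.38%, and TGACTCA, an AP-1 site, in 2.68%, 3.42% and 4.70%. The myogenic E-box and the ETS, cyclic AMP, NRF1 and AP-1 motifs were thus no more frequent in members than in the other TSS regions. Motifs with a high GC content are favoured by the GC content of the windows.

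The comparison with iMSBmal1KO asks how the promoters most open in control muscle differ after induced loss of Bmal1. By the same rule applied to the iMSBmal1KO libraries, 912 of the 1000 members were again among the 1000 highest (91.2%). All members at ranks 1 to 250 were, and of the 249 at ranks 751 to 1000 outside numbered Gm genes 175 were. In a ranking of each library by itself, 891 to 951 members recurred in the vehicle libraries, which had chosen them, and 876 to 898 in the iMSBmal1KO libraries.

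Of the 1000 members 1 differed between the groups at a limma adjusted p under 0.05 (0.1%), against 0.0881% of the 124901 regions tested. This share is near the background. An unadjusted p under 0.05 was reached by 3 members with higher and 5 with lower signal in iMSBmal1KO (0.3% and 0.5%), against 6.59% and 2.63% of all tested regions. All 4 iMSBmal1KO libraries lay above all 4 vehicle libraries in 0 members, against 3.62% of all tested regions, and below them in 2, against 1.87%. These counts depend on the scaling. The median member signal of vehicle replicate 1, 1391, was above that of every iMSBmal1KO library (1108 to 1349). On a scale set by the members, described below, 23 lay above and 41 below, against 4.35% and 2.08% of all tested regions. The vehicle values that chose the members enter this comparison.

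Most members had log2 changes close to 0. Their median log2 change was 0.06, against 0.12 over all tested regions, and 89.6% lay within 0.25 of 0, against 43.2% of all tested regions. The median standard error was 0.18 in members and 0.35 over all tested regions, so the estimates of members were also the more precise ones. The 2 medians are best read against each other: with median-of-ratios scaling they were -0.06 and 0.01. Without the filter on low signal the median over all regions was 0.03, below that of the members. No member had a log2 change past 1 in either direction. The median member signal itself differed between libraries, with vehicle replicate 4 the lowest, as given above. Libraries were therefore also scaled to the members themselves (a choice made after the data were seen), and the median standard error was then 0.10. Changes on this scale are relative to the median member and are called relative.

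**Figure D4:**
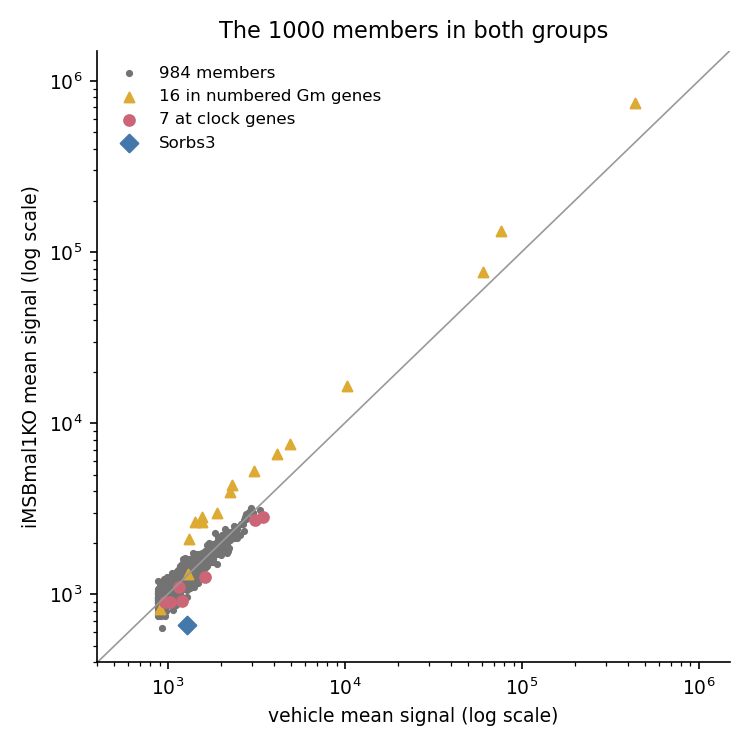
Mean signal of the 1000 members in iMSBmal1KO against vehicle (both log scales; the line marks equal values). Most members lie near the line, Sorbs3 lies below it at 663 against 1292, clock gene members lie on or below it, and 14 members in numbered Gm genes lie well above it, with Gm16253 on it at 1322 against 1304.

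The member that passed the test was the promoter of Sorbs3, which encodes vinexin, an adaptor of cell adhesions and the cytoskeleton, at chromosome 14, 70206069 to 70206915. Its signal was 1291, 1581, 1178 and 1119 under vehicle and 561, 742, 675 and 675 with iMSBmal1KO. Every iMSBmal1KO library was below every vehicle library. The log2 change was -0.96 ± 0.17 (SE), with limma adjusted p = 0.0327, and its rank fell from 372 to 2052. The call is close to the threshold: it was lost in 7 of 8 fits that left out 1 library, where the limma adjusted p rose to at most 0.165, and held only without vehicle replicate 4, while the log2 change stayed between -1.08 and -0.85 in every alternative run. Scaled to the members, the relative change was -1.02 ± 0.11 (SE), with limma adjusted p = 1.64e-04.

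Behind Sorbs3, the smallest p-values belonged to changes that did not pass the test. Shld1, a subunit of the shieldin complex of DNA repair, had 924 ± 192 in vehicle and 639 ± 174 in iMSBmal1KO (SD, 4 libraries each), and a log2 change of -0.56 ± 0.22 (SE), with limma adjusted p = 0.497. Tcap, the titin cap protein of the Z-disc, had 1292 ± 222 and 970 ± 241, a log2 change of -0.44 ± 0.20 (SE), with limma adjusted p = 0.53. Without iMSBmal1KO replicate 1 the log2 changes of Shld1 and Tcap were smaller, at -0.33 and -0.26. The other member with separate groups was Pitpna, a phosphatidylinositol transfer protein named here after its values were seen. It had 1284 ± 146 in vehicle and 1070 ± 59.2 in iMSBmal1KO, with a limma adjusted p of 0.61.

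On the higher side, the 3 members with the smallest p-values were Stim1, the calcium sensor of the endoplasmic reticulum, Camk2d, a calcium-dependent kinase, and 1700064H15Rik. Stim1 had 954, 1117, 808 and 657 under vehicle and 920, 1266, 1260 and 1311 with iMSBmal1KO. Its groups overlapped through iMSBmal1KO replicate 1, and its log2 change was 0.44 ± 0.19 (SE), with limma adjusted p = 0.516. Camk2d had 952 ± 200 and 1227 ± 150, with a limma adjusted p of 0.54, and 1700064H15Rik 1249 ± 432 and 1624 ± 161, with a limma adjusted p of 0.542.

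Scaled to the members, 2 members were called, Sorbs3 and Nr1d2 (0.2%), against 0.243% of all tested regions. On this scale the groups did not overlap in 23 higher members (2.3%), against 4.35% of all tested regions, and in 41 lower ones (4.1%), against 2.08%. The relative change declined with signal. Ranked by the mean of all 8 libraries, to give both groups the same weight, the median relative log2 change outside numbered Gm genes was -0.08 at ranks 1 to 100, -0.02 at ranks 101 to 250 and 0.05 at ranks 751 to 1000.

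Genes of the circadian clock had members in 6 of 22 (27.3%), with 7 regions. The log2 change was below 0 in 7 of 7 in the fit as deposited, against 332 of all 1000 members. Their median was -0.18, against 0.06 over all members, and on the relative scale -0.24 against 0.00. None of the 7 passed the test as deposited. The rule chose members by vehicle signal, which favours regions lower in iMSBmal1KO, so the shared direction supports nothing by itself. By iMSBmal1KO signal the weaker Tef region, Per2 and Cry2 ranked 1055, 1123 and 1119, outside the first 1000. Clock genes outside the limit, given below, changed in both directions. Without iMSBmal1KO replicate 3, the log2 changes of Cry2 and Bhlhe40 were 0.0042 and 0.03, so that 5 of the 7 members stayed below 0.

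Nr1d2 stood at 3.00, 2.68, 3.02 and 3.19 times the median member of the same library in vehicle replicates 1 to 4, and at 2.29, 2.37, 2.24 and 2.36 times with iMSBmal1KO. On this ratio every iMSBmal1KO library was below every vehicle library, and the overlap seen in the deposited signal was gone. The deposited signal had a log2 change of -0.29 ± 0.16 (SE), with limma adjusted p = 0.57. The relative change was -0.35 ± 0.07 (SE), with limma adjusted p = 0.0355. The relative scale was set by the members and chosen after the data were seen. With the planned scalings, limma adjusted p was 0.0831 (median-of-ratios factors), 0.231 (total nuclear reads) and 0.0563 (abundance-dependent loess). Nr1d2 was also chosen by its vehicle values, which enter this comparison. Its rank went from 7 in vehicle to 18 in iMSBmal1KO. Hdgfl2, which is no clock gene and lay beside it in signal, had a relative change of -0.28 ± 0.07 with a limma adjusted p of 0.149, and its ratios did not overlap either.

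Tef had both of its promoters among the members, the stronger at chromosome 15, 81810253 to 81811734, and the weaker at 81802394 to 81803215. The weaker had ratios of 1.04, 0.95, 1.08 and 1.06 under vehicle and 0.71, 0.77, 0.70 and 0.84 with iMSBmal1KO. The stronger had 2.70, 2.61, 2.67 and 2.57 in vehicle and 2.05, 2.24, 2.30 and 2.39 in iMSBmal1KO. Neither showed overlap of the groups. The relative change was -0.45 ± 0.10 at the weaker (SE), with limma adjusted p = 0.0566 and -0.23 ± 0.07 at the stronger (SE), with limma adjusted p = 0.262, and the difference between them was not tested. CACGTG was present before both starts, as shown above.

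The Per and Cry genes encode the repressors that act on BMAL1 and CLOCK. Per1 had 2049, 1518, 1472 and 1454 under vehicle and 1262, 1505, 1066 and 1204 with iMSBmal1KO. In the deposited signal the groups overlapped through iMSBmal1KO replicate 2. Its ratios were 1.47, 1.18, 1.33 and 1.60 in vehicle and 1.06, 1.12, 0.96 and 0.99 in iMSBmal1KO, without overlap, and the relative change was -0.42 ± 0.10 (SE), with limma adjusted p = 0.0961. Per2 had 1027 ± 228 in vehicle and 899 ± 155 in iMSBmal1KO (mean and SD of 4), with a relative change of -0.24 ± 0.10. Cry2 had 970 ± 135 and 901 ± 150, with a relative change of -0.17 ± 0.11. Bhlhe40, a helix-loop-helix repressor also known as DEC1, had 1157 ± 260 and 1103 ± 108, with a relative change of -0.10 ± 0.11. The groups of these 3 overlapped on both scales.

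**Figure D5:**
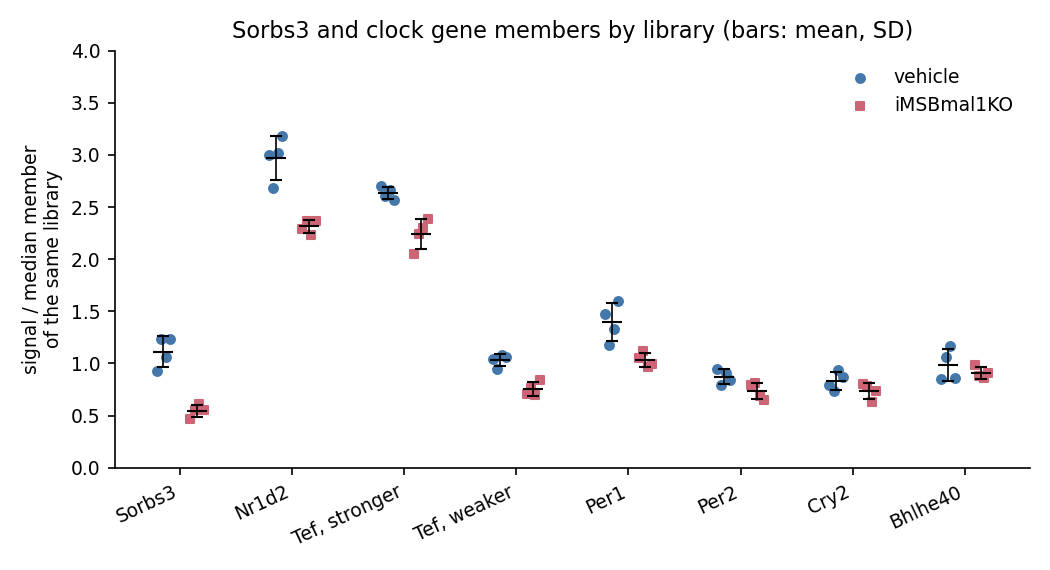
Signal divided by that of the median member of the same library, for Sorbs3 and the 7 clock gene members, with each library as a point and bars for the mean and SD of 4. The iMSBmal1KO libraries lie below all vehicle libraries for Sorbs3, Nr1d2, both Tef regions and Per1, and overlap them for Per2, Cry2 and Bhlhe40.

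Other clock genes lay outside the limit, with changes in both directions, and are named after their values were seen. Ciart, a repressor of BMAL1 and CLOCK, was at rank 1014 with 875 in vehicle and 484 in iMSBmal1KO, a log2 change of -0.82 with a limma adjusted p of 0.161 as deposited and a relative change of -0.88 with a limma adjusted p of 0.00106. Per3, at rank 1297, had 775 and 563, and Dbp, the relative of Tef, at rank 1314, had 769 and 710. Cry1, at rank 1602, went the other way, with 694 in vehicle and 971 in iMSBmal1KO (log2 change of 0.57, limma adjusted p of 0.521). Arntl, the symbol of Bmal1 in the table, was at rank 2094 with 591 and 602 at its best TSS region, and Nr1d1, the relative of Nr1d2, at rank 6296 with 187 and 294 (log2 change of 0.63, limma adjusted p of 0.491). The best TSS region of Npas2, the paralogue of Clock, was far below the limit at rank 11030, with 45.4 in vehicle and 203 in iMSBmal1KO, and was higher there (log2 change of 2.17, limma adjusted p of 2.98e-04).

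None of the members of the other lists was called. The background for the counts below is 668 of all 1000 members above 0 (66.8%) and 62.0% of all tested regions. For muscle contraction and energy genes 9 of 16 regions were above 0 and 7 below, with a median log2 change of 0.02. On the relative scale 10 of these 16 were below 0, with a median of -0.04, against 497 of all 1000 members. Chaperones had 9 above and 5 below, immediate-early genes 5 and 2, and cytosolic ribosomal proteins 4 and 0. On the relative scale 8 of 14, 2 of 7 and 1 of 4 of these were below 0. Splicing factors had 14 of 14 above 0, with a median of 0.15 as deposited, but 4 of 14 were below 0 on the relative scale, where the median was 0.09. Translation factors had 10 of 11 above 0, with a median of 0.13, and 1 of 11 below 0 on the relative scale.

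The change was also set beside the promoter sequence. Of the 710 members with a matched window, the 372 with CCAAT had a median relative log2 change of -0.03 and the 338 without it 0.04. Lower relative signal in every iMSBmal1KO library than in any vehicle library was seen in 22 of the 372 (5.91%) and 4 of the 338 (1.18%), against 2.08% of all tested regions. The opposite order, with every iMSBmal1KO library higher, was seen in 7 (1.88%) and 10 (2.96%), against 4.35%. The 83 members with CACGTG had a median relative change of -0.01, against 0.00 in the 627 without it. Separate lower groups were seen in 5 of the 83 (6.02%) and 21 of the 627 (3.35%), and separate higher ones in 1 and 16. Both regions of Tef are among the 5, so that share rests on few regions and counts this gene more than once. The 30 members with AAGATGGCG had a median of 0.06, with separate lower groups in 0 and separate higher groups in 4 (13.3%). That share rests on 4 regions. The 35 members with TATAAA had a median of -0.03, with separate lower groups in 3 (8.57%) and separate higher groups in 0. Separate lower and higher groups were seen in 20 and 14 of 569 with GGGCGG, 2 and 1 of 93 with CAGCTG, and 6 and 7 of 185 with CCGGAA. TGACGTCA had 1 and 0 of 19, GCGCATGCG 0 and 0 of 20 and TGACTCA 0 and 0 of 19. The median GC content was 63.3% with CCAAT and 66.0% without it, and its part in the difference was not tested. The middle 50% of members ran from -0.12 to 0.06 with CCAAT and from -0.05 to 0.11 without it.

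Members differed in how far the vehicle libraries spread, and the order depended on the scaling. The coefficient of variation of the deposited signal over the 4 vehicle libraries was lowest at Shld2, another shieldin subunit, with 3.17%, followed by Pnpla7, a lysophospholipase, with 3.96% and Ddit3, the stress factor CHOP, with 5.32%. It was highest at Mpp7, a scaffold of cell junctions, with 44.2%, Tmpo, a protein of the inner nuclear membrane, with 41.6% and Plekhg2, an exchange factor for small GTPases, with 38.6%. At Mpp7 the signal was 1327, 620, 1101 and 500 in vehicle replicates 1 to 4. Vehicle replicate 4 was the lowest of the vehicle libraries at Mpp7, Tmpo and Plekhg2, with 500, 603 and 553. On the ratio to the median member, the 3 steadiest by deposited signal were among the more variable, at 17.1% for Shld2, 20.9% for Pnpla7 and 14.4% for Ddit3. The smallest coefficients on that scale were those of Nfya, a subunit of NF-Y, with 0.715%, and of Usp22 and Nectin2, each with 1.05% (named after their values were seen). Mpp7, Tmpo and Plekhg2 stayed at the variable end, with 35.8%, 28.6% and 23.01%.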

How the data were processed

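The authors deposited 1 table of ATAC-seq signal for 489637 regions in 8 libraries, with gene annotation. Per the submitters' processing notes, Partek, Bowtie2, MACS2 and DESeq2 were used, and mm10 and GRCm39 are listed, with no role given; duplicate removal and pooling for region calling are not given in the sources used here. In each library 98.3% to 99.8% of the deposited non-zero signal values were whole multiples of 1 step within 0.02 reads, so they were read as counts over a factor per library; whole reads are not claimed, and no count test was run although one was planned for counts. Positions are as the table lists them; RefSeq sequences are of GRCm38.p6, 835 members matched by symbol, and 710 held the RefSeq start.

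Regions with at least 4 libraries at 0.762 read equivalents per M and 15 reads in all were tested, 124901 including all 1000 members. limma-trend (limma 3.58.1, R 4.3.3; robust, group only, 8 libraries) was fitted to log2(signal + 1), so fold changes are on that scale, with Benjamini-Hochberg adjustment over all tested regions and a threshold of 0.05. The fit was tested on simulated data. Tables and figures used Python 3.11.15, pandas 2.3.3 and matplotlib 3.10.9. The share of reads was planned with a permutation test, which is not given because the members were chosen by their values. Members, gene lists and motifs were chosen with earlier results of these data known. Named were the 12 highest members (1 per gene), 3 on each side of the limit, up to 6 called members per direction (or the 3 smallest p-values), the 3 highest of each list, all clock members, 3 members at each end of variation, and fibre and other cell markers; others are said to be named after their values were seen. Since no molecular identifiers were used, reads can repeat a molecule, and neighbouring regions can abut. Alternatives were other scalings, pseudocounts, filters, tests and rankings, a replicate block and leaving out each library.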

Additional observations from a re-analysis of the deposited data

Results flagged for a closer look

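Among 132 sets of 4 replicate values of the named members, 4 had 1 library far from the other 3, by a gap above Dixon's 95% critical value; chance gives about 6.6. At Stim1, iMSBmal1KO replicate 1 had 920 and the others 1260 to 1311. At Shld1, iMSBmal1KO replicate 1 had 381 and the others 697 to 761. At Per1, vehicle replicate 1 had 2049 and the others 1454 to 1518. At Tmpo, iMSBmal1KO replicate 2 had 1458 and the others 1170 to 1205.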

How the results depend on the processing

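The count of members past the threshold, 1 as reported, was 2 with abundance-dependent loess, 2 with scaling to the members and 3 with scaling to the promoters highest over all libraries (the last 2 scalings chosen after seeing the data), and 0 with the replicate block. It was 0 for members chosen by the iMSBmal1KO mean and 2 for members chosen by signal per base. Leaving out 1 library gave 0 to 1. Small counts of calls are thus sensitive to each of these choices, and the cause was not tested. The replicate numbers did not pair the samples (correlations of same-numbered libraries from -0.06 to 0.14). Sorbs3 was lost in 8 of 18 alternatives, the replicate block among them (limma adjusted p 0.0505), with limma adjusted p from 7.93e-05 to 0.165, while its log2 change stayed between -1.08 and -0.85. Leaving out 1 library moved the log2 change of Bhlhe40 over -0.22 to 0.048, positive without vehicle replicate 2, vehicle replicate 3 or iMSBmal1KO replicate 3, and that of Cry2 over -0.21 to 0.0042, positive without iMSBmal1KO replicate 3. The weaker Tef region passed with loess (limma adjusted p 0.0301) and with scaling to the promoters highest over all libraries (0.0487). The median log2 change of members less that of all regions, -0.06, was 0.03 without the filter and negative in the other alternatives run. The share shared with the iMSBmal1KO ranking was 89.8% for the highest 500 and 93.0% for the highest 2000. The planned edgeR test was not run, since the table does not give whole reads. The shallowest library, vehicle replicate 4 at 4.31 M read equivalents, held 160 reads in its lowest member. Whether its depth limits weak regions more than these members was not tested.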
